A study of Mus musculus with 20 samples.

Results

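Effector CD8+ T cells recovered from the lung were compared with those recovered from the liver of the same kind of transplanted mice. The comparison used 9 of the 20 arrays of the series, lung 1 to 5 and liver 1 to 4. The fifth liver array was left out because it carried transcripts of the intestine: the mean level of the Paneth cell markers with a probe was 1.76 there and between -2.43 and -2.05 on liver 1 to 4. That choice used measured values, so the intestinal markers are given as a description only.

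The recipients of both groups were female C57Bl/6 m-act OVA mice aged 8 to 16 weeks, which carry an ovalbumin transgene driven by the CAG promoter, one that is active in most cell types. They received 11 Gy of total body irradiation in 2 doses of 5.5 Gy given 3 hours apart, then bone marrow cells and splenocytes of OT-I donors, whose CD8+ T cells carry 1 receptor against an ovalbumin peptide. The OT-I CD8+ T cells of the graft carried CD45.1, whereas the other graft cells and the recipients carried CD45.2. On day 4, during lethal acute graft-versus-host disease, cells were taken from lung and liver by magnetic positive selection for CD45.1, and their RNA went through 2 rounds of linear amplification. No label says which animal an array came from. The p-values therefore reflect only how far these arrays spread, and that spread may be technical. The blood and small intestine arrays of the series came from mice treated in the same way and are used here only where named.

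Effector CD8+ T cells kill targets that present their antigen, through perforin and granzymes, and secrete interferon gamma and chemokines. In graft-versus-host disease they expand in lymphoid organs, enter the circulation and move into target organs, where they meet the local macrophages, endothelium and epithelium. The lung holds alveolar macrophages and surfactant-producing epithelium, and the liver holds Kupffer cells, sinusoidal endothelium and hepatocytes.

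A level is the log2 signal less that at the array's 75th percentile, and a difference is lung minus liver on that scale. The 75th percentile itself stood at 829.78 to 2014.9 on the lung arrays and at 1285.5 to 2602.8 on the liver arrays. On a lung array 23.5% to 32.6% of the probes were well above background, and on a liver array 28.5% to 34.1%. The lowest level that counted as well above background reached -0.01 on lung 4 and -0.08 on lung 3 but at most -0.70 on a liver array, so a low level on those lung arrays is a bound rather than a measurement. Probes not well above background had a median level of -2.08 on lung 3 and -2.10 on lung 4, but of -3.22 to -2.69 on liver 1 to 4. A gene that is dim on lung 3 and in liver can therefore show no overlap without being measured as higher on lung 3. Each slide held 1 array of each site, and the replicate number of an array is its slide. Lung 3 stood apart from the other lung arrays in its macrophage transcripts, and lung 1 lay closest to the liver arrays in many T cell genes. Counts of calls are therefore given with and without each, as is the adjusted p of the genes described in most detail. Both arrays were picked out by measured values, so leaving 1 out tends to widen the difference of the genes that set it apart. An adjusted p without lung 3 or without lung 1 shows the weight of that array and is no support for a difference.

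No gene passed the test. Of 7315 genes tested with limma over the 9 arrays, 0 had an adjusted p under 0.05 (0% called), and the lowest adjusted p was 0.121, shared by 1773 genes. At an unadjusted p under 0.05 there were 2663 genes (36.4%). In lung 1056 of them were higher (14.4%) and 1607 lower (22%). The median difference of all tested genes was -0.35, with 2343 genes above 0 and 4972 below. The split between directions moved with the scaling, since the higher share of the genes under 0.05 was 39.7% with the scaling used here, 54.1% after quantile normalization and 3.36% after median scaling. The median of all genes was -0.20 and -0.75 in those scalings, so list medians are read against it. For 107 genes every lung array lay above every liver array (1.46%), and for 741 every lung array lay below (10.1%). Among the 5157 genes above background on all 9 arrays these counts were 28 (0.543%) and 504 (9.77%).

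Other sets of arrays gave calls. With the blood and small intestine arrays adding to the estimate of the spread, 19 genes were called in limma over 18 arrays, all higher in lung (0.26%), with adjusted p from 0.0235 to 0.0447. All 19 calls were lost over the same 18 arrays with the replicate block, which is the slide (0 called in limma, lowest adjusted p 0.0529, 2386 genes at an unadjusted p under 0.05). Quantile normalization of the 18 arrays gave 0 calls in limma as well (lowest adjusted p 0.0958, 2027 genes at an unadjusted p under 0.05). The 19 were Sftpc, Krt79, Lpl, Ear1, Cidec, Ear10, Rnase2a, Atp6v0d2, Sftpd, Ear2, Ms4a8a, Sftpa1, Flvcr2, Fpr2, Alox5, Hsd3b7, Cbr2, Fabp1 and Lmna. In 18 of them no liver array was well above background, and in 18 lung 3 was not either. Without lung 3, 91 genes were called higher (1.24%) and 8 lower (0.109%), and 19 of the 19 were among them. Without lung 1, 961 were called higher (13.1%) and 889 lower (12.2%), so that array alone decided most calls. Leaving out any other array gave 0 calls in limma, with 1340 to 2414 genes at an unadjusted p under 0.05. With liver 5 added limma called 0, with 1553 genes at an unadjusted p under 0.05. The genes without overlap then numbered 52 higher and 335 lower, counts that an added array can only keep or lower.

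The largest differences were in transcripts of alveolar macrophages, the phagocytes of the airspaces. Of 18 markers, 18 had a probe and 16 were tested. All 16 were higher in lung at an unadjusted p under 0.05 and 11 had no overlap, beside 14.4% and 1.46% of all genes. Their median difference was 4.57 beside -0.35 for all genes. A marker that enters the test only through the lung had to be higher there, so these counts describe the arrays and support nothing further. The summed linear signal of the markers, in units of the 75th percentile, was 247 on lung 1, 203 on lung 2, 6.61 on lung 3, 1029 on lung 4 and 644 on lung 5. On the liver arrays it ran from 5.09 to 16.5. Thus lung 3 fell within the liver range and the other lung arrays lay far above it. Of the 18 probes, 18, 16, 1, 18 and 18 were well above background on lung 1 to 5, against 3, 3, 1 and 2 on liver 1 to 4. In bulk RNA, fewer cells of a type and less RNA per cell cannot be told apart.

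Ear1, Ear2, Ear10 and Rnase2a, members of the eosinophil-associated ribonuclease family, were among the largest differences. The sequences upstream of their starts are shown because they are alike to different degrees among the members. Each run holds 150 bases before the annotated start, from RefSeq on GRCm38.p6, 5′ to 3′ on the gene's strand. They are chr14:43819640-43819789 on the minus strand for Ear1, chr14:44102504-44102653 on the plus strand for Ear2, chr14:43923597-43923746 on the minus strand for Ear10 and chr14:51256113-51256262 on the minus strand for Rnase2a. Capitals mark a run of 22 bases, TATATCTATGGGCCCAAGTGGA, that all 4 share.
Ear1: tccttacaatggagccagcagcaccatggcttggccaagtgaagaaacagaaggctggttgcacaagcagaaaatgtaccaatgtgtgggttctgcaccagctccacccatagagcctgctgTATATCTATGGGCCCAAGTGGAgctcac
Ear2: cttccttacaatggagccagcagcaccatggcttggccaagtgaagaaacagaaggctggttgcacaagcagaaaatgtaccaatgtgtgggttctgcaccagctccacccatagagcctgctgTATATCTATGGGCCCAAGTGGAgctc
Ear10: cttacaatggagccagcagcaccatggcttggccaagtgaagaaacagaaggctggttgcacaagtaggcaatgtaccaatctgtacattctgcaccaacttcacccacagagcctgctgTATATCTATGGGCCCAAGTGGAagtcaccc
Rnase2a: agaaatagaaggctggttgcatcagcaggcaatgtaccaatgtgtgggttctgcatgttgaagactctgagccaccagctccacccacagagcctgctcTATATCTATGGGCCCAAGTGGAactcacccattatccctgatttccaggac
The shared run begins 28 bases before the start in Ear1, 26 in Ear2, 30 in Ear10 and 51 in Rnase2a. On either strand it lies in the 250 bases upstream of 4 of 32851 annotated starts (0.0122%), and those are the same 4. The upstream bases of Ear1 and Ear2 are 99.2% identical, those of Ear1 and Ear10 93.5%, and those of Rnase2a and the other 3 between 78.9% and 79.5%. A match of letters is a description and not a binding site. Probes of one member may also take up transcript of another, so the values of the family are uncertain member by member.

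Ear2 read 5.34, 5.02, -1.98, 7.43 and 7.18 on lung 1 to 5, and -3.06, -2.84, -2.54 and -3.04 on liver 1 to 4. Lung 3 was by far the lowest lung array, though it still lay above every liver array, and its probe was not well above background there. The difference was 7.47 ± 1.59 (SE, 5 against 4 arrays), or at least 49.1-fold. In limma it had an adjusted p of 0.121 over 9 arrays, 0.029 over 18 arrays and 7.8e-05 without lung 3, with values from 5.0e-06 to 0.249 over all alternatives run.

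Ear10 was at least 30.3-fold, Ear1 at least 19.5-fold and Rnase2a at least 19.3-fold higher in lung, each with the same order of arrays at the bottom. Krt79, a keratin that marks alveolar macrophages, was at least 16.9-fold higher, with levels of 3.60, 3.12, -2.12, 5.89 and 4.82 on lung 1 to 5. Lung 3 again stood below the other lung arrays. Lipid-handling genes were among the same markers: Lpl, the lipoprotein lipase, was at least 3.04-fold higher, Cidec, a lipid droplet protein, at least 3.00-fold and the fatty acid binding protein Fabp4 at least 4.89-fold. Pparg, the nuclear receptor needed for alveolar macrophage development, was at least 2.32-fold higher and Siglecf, a surface lectin of these cells, at least 6.57-fold. Chil3, a chitinase-like secreted protein, read 6.72, 6.48, -2.10, 8.26 and 7.83 on lung 1 to 5, and -3.32, -1.25, -2.71 and 3.42 on liver 1 to 4. Its groups overlapped, since liver 4 lay above lung 3.

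**Figure D1:**
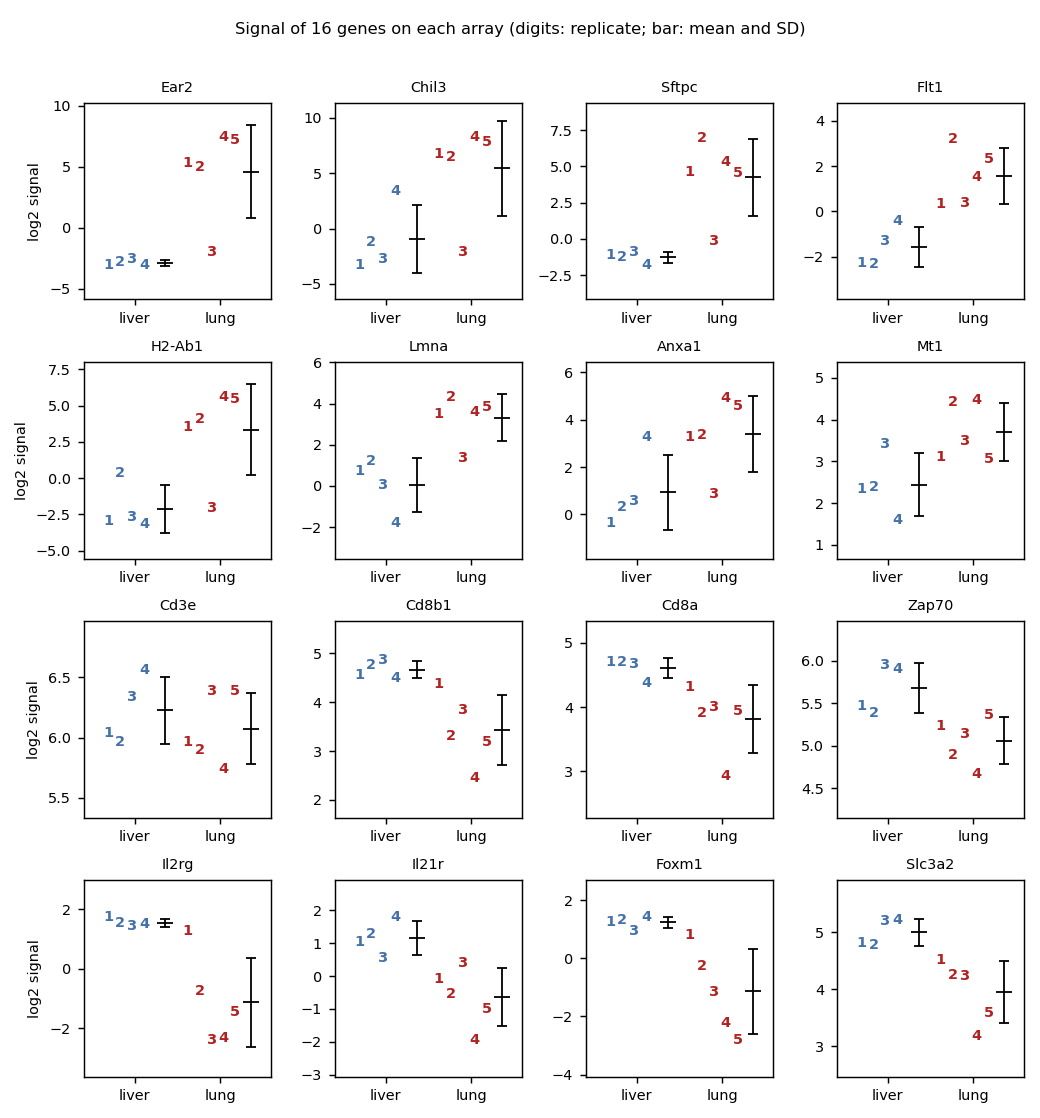
Levels of 16 genes on the 5 lung and 4 liver arrays, as log2 signal less the 75th percentile (vertical axis); each digit is 1 array, named by its replicate number, and black bars give the group mean and SD. The macrophage and surfactant genes are high on every lung array except lung 3, whereas for Cd8b1 and Il2rg the lung arrays spread below the 4 liver arrays.

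Markers of other myeloid and antigen-presenting cells moved with the macrophage markers. Of 8 tested genes of the monocyte and macrophage list, 4 were higher at an unadjusted p under 0.05, beside 14.4% of all genes. The median difference of the 8 was 1.39, and 1 of them was above background on all 9 arrays. The summed level of the list ran from 24.9, on lung 3, to 439 in lung against 42.5 to 64.0 in liver. Of 9 tested genes of the dendritic cell and class II list 6 were higher at that threshold, with a median of 1.69 and 0 without overlap. Of these 9, 5 were above background on all 9 arrays. Here, and in the lists of lung epithelium and endothelium below, a gene that entered the test only through the lung had to be higher there. H2-Ab1, a chain of the class II molecule, read 3.51, 4.11, -2.03, 5.62 and 5.46 on lung 1 to 5, and -2.99, 0.37, -2.68 and -3.15 on liver 1 to 4. Cd74, the invariant chain that guides class II molecules, read 2.92, 2.63, -1.42, 4.25 and 3.71 on lung 1 to 5, and -1.16, -0.35, -1.28 and -1.57 on liver 1 to 4. In both, lung 3 lay inside the liver range and the other 4 lung arrays above it. Their differences were 5.45 ± 1.43 and 3.51 ± 0.95. Without lung 3 their adjusted p in limma was 0.00194 and 0.000408, with values up to 0.281 and 0.287 over all alternatives.

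Surfactant genes of the alveolar type II epithelium were higher in lung as well. Sftpc, surfactant protein C, read 4.61, 6.98, -0.16, 5.33 and 4.51 on lung 1 to 5, and -1.11, -1.22, -0.90 and -1.78 on liver 1 to 4. All lung arrays lay above all liver arrays, but neither lung 3 nor any liver array was well above background. The highest lung array was lung 2 rather than lung 4, which held the most macrophage transcript. The difference was 5.51 ± 1.11, or at least 37.8-fold, with an adjusted p in limma of 0.121 over 9 arrays, 0.0235 over 18, 0.000156 without lung 3 and 0.034 without lung 1, and values up to 0.249 over all alternatives. Sftpd, surfactant protein D, was at least 8.68-fold higher and Sftpa1, surfactant protein A, at least 2.55-fold. Of 10 tested genes of the lung epithelium list, 4 had no overlap and were higher, beside 1.46% of all genes. The median of the 10 was 0.85, and 4 of the 10 were above background on all 9 arrays. The summed level of that list ran from 31.4, on lung 3, to 213 in lung and from 25.1 to 31.2 in liver.

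The mean level of the tested endothelial markers was higher on every lung array, lung 3 included, at 1.95 to 4.18 against 0.94 to 1.86 in liver. Flt1, a receptor for vascular endothelial growth factor, read 0.34, 3.21, 0.37, 1.54 and 2.30 on lung 1 to 5, and -2.26, -2.31, -1.31 and -0.44 on liver 1 to 4. The groups did not overlap, and lung 3 was level with lung 1 although its macrophage markers were at the liver range. Only 1 liver array was well above background for Flt1. The difference was 3.13 ± 0.62, and in limma the adjusted p was 0.121 over 9 arrays, 0.0564 over 18 and 0.0257 without lung 3, with values from 0.0135 to 0.249 over all alternatives. Cldn5, a tight junction protein of endothelium, read 0.65, 3.65, 2.09, 2.31 and 3.38 on lung 1 to 5, and 0.01, -0.75, -0.32 and 1.89 on liver 1 to 4, where liver 4 lay above lung 1. Of 8 tested endothelial markers 6 were higher at an unadjusted p under 0.05, beside 14.4% of all genes. The median difference of the 8 was 1.54, and 5 of them were above background on all 9 arrays. In 2 markers every lung array lay above every liver array, beside 1.46% of all genes. In 1 further marker every lung array lay below, beside 10.1%. The part of these cells in the differences below was not tested.

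Transcripts of liver cells gave little on the liver side. None of the 10 sinusoidal endothelium markers passed the filter: 0 were tested. Of 28 hepatocyte probes 8, 5, 3 and 8 were well above background on liver 1 to 4, and 4, 4, 3, 4 and 4 on lung 1 to 5. Of the 5 hepatocyte genes tested 2 were higher and 1 lower in lung at an unadjusted p under 0.05. Over all genes these shares were 14.4% and 22%, and the median of the 5 was 0.15. Apoa2, an apolipoprotein, was the lower one, with a difference of -1.48 ± 0.59. The higher ones were Trf, the iron carrier transferrin, by 4.28 ± 1.32 and Pck1, an enzyme of glucose synthesis, by 0.88 ± 0.34. Alb and Apoa1 did not pass the filter. Of 10 Kupffer cell markers 3 were tested, 2 of them higher in lung at that threshold, beside 14.4% of all genes. They were Marco, a scavenger receptor that alveolar macrophages also carry, by 4.17 ± 1.53, and Nr1h3 by 0.85 ± 0.35. Of 5 tested neutrophil markers only Cxcr2 reached that threshold, and of 5 B and plasma cell markers 0 did. The adjusted p in limma was above 0.05 for both lists. Cxcr2 belongs to the genes that run with Crygc, described below.

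Some genes were higher on lung 3 too. Of the 107 genes whose lung arrays lay above all liver arrays, 60 were not well above background on lung 3. On lung 3, 13 of the 107 lay at least 1 above the liver mean, 9 of them well above background. Lmna, which encodes the nuclear lamins A and C, read 3.52, 4.30, 1.35, 3.57 and 3.82 on lung 1 to 5, and 0.71, 1.23, 0.03 and -1.81 on liver 1 to 4. Lung 3 was the lowest lung array and stood just above liver 2. The difference was 3.27 ± 0.69, with an adjusted p in limma of 0.121 over 9 arrays, 0.0447 over 18, 0.00856 without lung 3 and 0.034 without lung 1, and values from 0.00276 to 0.249 over all alternatives. It was the 1 member of the T cell lists called over 18 arrays.

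Cebpd, a transcription factor induced by inflammatory signals and glucocorticoids, read -0.20, 4.24, -0.32, 1.24 and 1.80 on lung 1 to 5, and -3.48, -3.27, -0.995 and -3.50 on liver 1 to 4. Neither lung 3 nor any liver array was well above background, and the lung mean was at least 5.18-fold higher. Rab12, a small GTPase of vesicle traffic chosen after its values were seen, read 0.82, 1.86, 0.78, 1.25 and 1.02 on lung 1 to 5, and -0.45, 0.02, -0.07 and -0.88 on liver 1 to 4. The lung arrays were tightly grouped and lung 3 was level with lung 1. Its difference was 1.49 ± 0.29 (adjusted p 0.121 in limma, 0.034 without lung 1 and up to 0.320 over all alternatives). Crip2, a LIM domain protein of vascular cells, also chosen after its values were seen, differed by 1.44 ± 0.41 without overlap, and lung 2 was its highest array.

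**Figure D2:**
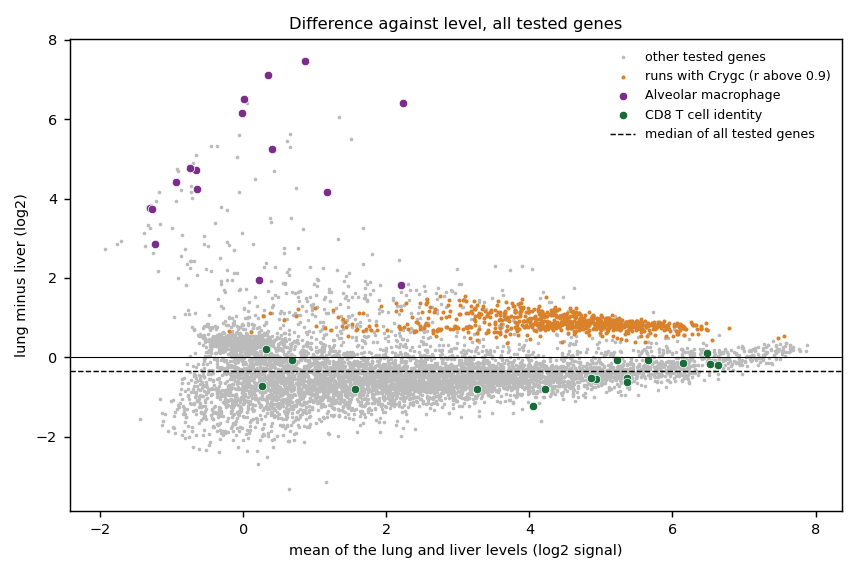
Difference between lung and liver (vertical axis, log2) against the mean of the lung and liver levels (horizontal axis, log2 relative to the 75th percentile) for the 7315 tested genes. Alveolar macrophage markers stand far above 0, genes that run with Crygc form a band at high levels around 0.85, and the CD8 identity genes lie mostly below 0.

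The cells carried the T cell genes that their label names, and the mean level of these genes was lower on the lung arrays. Of 18 genes of CD8 T cell identity 17 were tested; 2 had a difference above 0, 7 were lower in lung at an unadjusted p under 0.05 and 6 were lower without overlap, beside 10.1% of all genes. Their median difference was -0.52, a shift of -0.17 relative to the median of all genes, above which 8 of the 17 lay. That shift was -0.03 with normexp and -0.07 among genes above background on all 9 arrays. The mean level of the list was 4.10, 4.00, 4.20, 3.55 and 4.19 on lung 1 to 5, and 4.36, 4.35, 4.49 and 4.45 on liver 1 to 4. The groups did not overlap, and lung 4, which held the most macrophage transcript, was lowest. On lung 3, with macrophage markers at the liver range, the mean was 4.20, below every liver array. The part of other cells in these means was not tested.

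Cd8b1, the beta chain of the CD8 coreceptor, read 4.37, 3.31, 3.83, 2.44 and 3.19 on lung 1 to 5, and 4.55, 4.76, 4.86 and 4.50 on liver 1 to 4. All lung arrays lay below all liver arrays, with lung 1 close under liver 4. The difference was -1.24 ± 0.35, with an adjusted p in limma of 0.121 over 9 arrays and 0.034 without lung 1, and values up to 0.331 over all alternatives. Cd8a, the alpha chain, read 4.31, 3.92, 4.00, 2.92 and 3.94 on lung 1 to 5, and 4.70, 4.70, 4.67 and 4.37 on liver 1 to 4. It had no overlap either, and its difference was -0.79 ± 0.28, with an adjusted p of 0.0414 in limma without lung 1 and up to 0.326 over all alternatives. A second Cd8a probe was not well above background.

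Signalling genes downstream of the receptor followed with smaller differences. Zap70, the kinase that binds the CD3 chains, read 5.23, 4.89, 5.14, 4.67 and 5.36 on lung 1 to 5, and 5.47, 5.39, 5.95 and 5.91 on liver 1 to 4. Lung 4 was the lowest, and lung 5 lay just under liver 2, so that the groups did not overlap. Its difference was -0.62 ± 0.23. Cd5, a surface damper of receptor signals, differed by -0.54 ± 0.22 and Bcl11b, a transcription factor of T lineage commitment, by -0.71 ± 0.26, both without overlap. By contrast Cd3e, a chain of the receptor complex, read 5.96, 5.89, 6.38, 5.74 and 6.38 on lung 1 to 5, and 6.04, 5.96, 6.34 and 6.56 on liver 1 to 4. These groups overlapped, and the difference was -0.15 ± 0.23.

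Over the 26 T cell lists together, 354 members were tested, 2 were higher without overlap (0.565%) and 26 lower (7.34%), beside 1.46% and 10.1% of all genes. Their median difference was -0.34, near that of all genes.

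Of 19 tested cytokine receptors 2 were lower without overlap, beside 10.1% of all genes, and both belong to the common gamma chain family. Il2rg, the common gamma chain itself, read 1.26, -0.76, -2.39, -2.32 and -1.44 on lung 1 to 5, and 1.74, 1.52, 1.42 and 1.49 on liver 1 to 4. The liver arrays were nearly level, lung 1 lay close beneath them and the other lung arrays spread far below; only 2 lung arrays were well above background. The difference was -2.67 ± 0.64, with an adjusted p in limma of 0.121 over 9 arrays and 0.0145 without lung 1, and values up to 0.249 over all alternatives. Il21r, the receptor for interleukin 21, read -0.08, -0.55, 0.40, -1.93 and -1.002 on lung 1 to 5, and 1.04, 1.28, 0.54 and 1.79 on liver 1 to 4. Without overlap, its difference was -1.80 ± 0.45, with only 3 lung arrays well above background. It fell without lung 3 and without lung 1, at adjusted p of 0.0470 and 0.034 in limma, with values up to 0.249 over all alternatives. Il7r, the receptor chain for interleukin 7, read 1.89, 1.62, 1.60, -1.99 and 0.46 on lung 1 to 5, and 2.20, 2.79, 1.59 and 2.42 on liver 1 to 4. It overlapped through liver 3, and its difference was -1.53 ± 0.71. Il2rb differed by -0.14 ± 0.19 and Il2ra by -0.04 ± 0.74. Of the 19 receptors 2 were higher and 5 lower at an unadjusted p under 0.05, beside 14.4% and 22% of all genes, with a median of -0.38 beside -0.35. The higher Csf2rb, a receptor chain for GM-CSF that macrophages use, was not well above background in liver or on lung 3.

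Single costimulatory and trafficking receptors were lower, and the medians of their lists lay below that of all genes. The median was -0.61 for the costimulatory genes and -0.57 for the chemokine receptors, beside -0.35 for all genes. Of 10 tested costimulatory genes 2 were lower at an unadjusted p under 0.05 and 1 without overlap, beside 22% and 10.1% of all genes. Of 11 tested chemokine receptors 2 were higher and 1 lower at that threshold, beside 14.4% and 22% of all genes. The higher ones, Cxcr2 and Xcr1, belong to the genes that run with Crygc, described below. Tnfrsf4, also called OX40, read 3.67, 4.42, 4.04, 2.39 and 2.32 on lung 1 to 5, and 4.82, 5.04, 4.37 and 5.64 on liver 1 to 4, so that lung 2 just overlapped liver 3. Its difference was -1.60 ± 0.47, with an adjusted p of 0.0418 in limma without lung 1 and up to 0.249 over all alternatives. Tnfrsf18, also called GITR, differed by -0.93 ± 0.32 and was the costimulatory gene without overlap. Slamf6, a receptor of T cells with memory potential, read 0.49, -1.09, 1.12, -2.25 and 0.07 on lung 1 to 5, and 1.50, 2.00, 1.74 and 1.71 on liver 1 to 4. Its adjusted p in limma was 0.034 without lung 1 and up to 0.268 over all alternatives. Only 3 lung arrays were well above background for Slamf6. A second probe for it gave a difference near the same, -2.04. Gpr183, an oxysterol receptor that guides migration, was not well above background on any lung array and was at least 2.03-fold lower in lung.

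Genes of recirculating T cells were lower on average, with 13 tested, 1 above 0, 2 lower without overlap, beside 10.1% of all genes, and a median of -0.74. S1pr1, the receptor for egress from tissue, differed by -0.74 ± 0.54, with overlap. The residency list had 13 tested, a median of -0.35 and 0 without overlap. Cd69, a surface marker of activation and residency, differed by 0.05 ± 0.53, and its sign turned with the scaling. Chemokine receptors of effector cells overlapped, with differences of -0.30 ± 0.39 for Cxcr3 and -0.35 ± 0.72 for Cxcr6. Among inhibitory receptors Pdcd1, which encodes PD-1, differed by -0.02 ± 0.25 and Lag3 by -0.57 ± 0.28. Pdcd1lg2, a ligand gene of PD-1, differed by -2.08 ± 0.68 without overlap, with 3 lung arrays well above background.

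**Figure D3:**
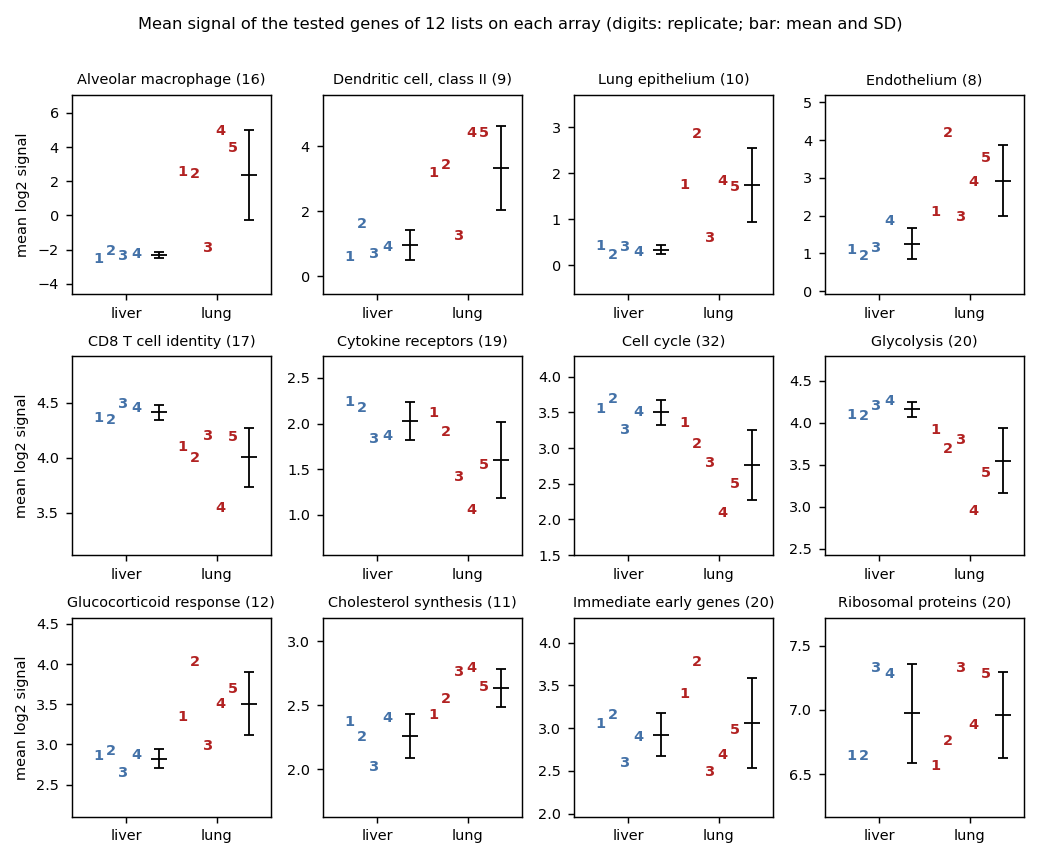
Mean level of the tested members of 12 gene lists (vertical axis, log2 relative to the 75th percentile) on each lung and liver array; each digit is 1 array, named by its replicate number, black bars give the group mean and SD, and the number of tested genes stands in brackets. The alveolar macrophage mean is near the liver level on lung 3 and between 2.41 and 4.97 on the other lung arrays, and the CD8 identity means of the 5 lung arrays lie below those of the 4 liver arrays.

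Most genes of the killing machinery overlapped between the sites. Gzma, granzyme A, read 6.68, 6.66, 6.75, 6.82 and 6.57 on lung 1 to 5, and 6.89, 6.03, 6.99 and 7.47 on liver 1 to 4, and the difference was -0.15 ± 0.28. Gzmb, granzyme B, differed by -0.88 ± 0.55 and Fasl, the Fas ligand, by -0.54 ± 0.43. All 3 groups of values overlapped. Of 10 tested cytotoxic genes 1 had no overlap, beside 10.1% of all genes. Ctsw, a cathepsin of cytotoxic lymphocytes, read 5.45, 4.74, 4.69, 4.34 and 5.07 on lung 1 to 5, and 5.69, 5.60, 5.76 and 6.16 on liver 1 to 4. Its difference was -0.94 ± 0.26, with an adjusted p in limma of 0.121 over 9 arrays and 0.034 without lung 1, and values up to 0.261 over all alternatives.

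Effector cytokines overlapped between the sites. Ifng, interferon gamma, read 5.55, 5.73, 4.85, 3.53 and 4.22 on lung 1 to 5, and 4.28, 4.49, 4.38 and 4.61 on liver 1 to 4. Lung 1 to 3 lay above every liver array and lung 4 and 5 below every one, and the difference of 0.34 ± 0.42 turned sign with the scaling. The chemokine Ccl3 differed by 1.23 ± 0.65, Ccl4 by 0.69 ± 0.47 and Ccl5 by -0.19 ± 0.45. Of 11 tested cytokines and chemokines the median difference was 0.04. The 1 member higher at an unadjusted p under 0.05 was Ccl9, a chemokine of myeloid cells, which was not well above background in liver or on lung 3.

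Immediate early genes, induced within minutes of stimulation or of handling tissue, stood above the shift of all genes. Of 20 tested, 15 were above 0 with a median of 0.14, but 0 had no overlap and 1, Nr4a2, was under an unadjusted p of 0.05. Fos read 3.94, 4.55, 1.52, 3.27 and 3.02 on lung 1 to 5, and 1.94, 2.88, 2.77 and 1.01 on liver 1 to 4. Lung 3 was lower than 3 of the liver arrays and the other lung arrays were above all 4, and the difference was 1.11 ± 0.59. Egr1 differed by 0.90 ± 0.62 and Jun by 0.79 ± 0.36. Among transcription factors of effector differentiation Tbx21, which encodes T-bet, differed by 0.58 ± 0.25 and Tcf7, a factor of memory and self-renewal, by -0.78 ± 0.39, both with overlap.

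Cell cycle genes were mostly lower in lung. Of 32 tested, 20 were lower at an unadjusted p under 0.05 and 6 without overlap, beside 22% and 10.1% of all genes. Of the 32, 2 were above 0, and the median was -0.65. The mean level of the list was 3.35, 3.06, 2.79, 2.10 and 2.50 on lung 1 to 5, and 3.55, 3.68, 3.26 and 3.50 on liver 1 to 4. Lung 1 lay above liver 3 and the other lung arrays below every liver array. Foxm1, a transcription factor of genes for mitosis, read 0.81, -0.26, -1.15, -2.23 and -2.81 on lung 1 to 5, and 1.24, 1.31, 0.95 and 1.43 on liver 1 to 4. The liver arrays were nearly level, and only 2 lung arrays were well above background. Its difference was -2.36 ± 0.63, and without lung 1 it fell at an adjusted p of 0.034 in limma, with values up to 0.325 over all alternatives.

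Aurka, a mitotic kinase, read 2.23, 2.13, 1.91, 1.47 and 2.30 on lung 1 to 5, and 2.77, 2.75, 2.77 and 2.58 on liver 1 to 4, without overlap. Rrm1, a subunit of ribonucleotide reductase, differed by -0.82 ± 0.27 without overlap. Without lung 1 their adjusted p in limma was 0.0411 and 0.0344, with values up to 0.561 and 0.307 over all alternatives. Mki67, the proliferation marker Ki-67, overlapped widely, with 5.47, 5.12, 2.07, 1.19 and 2.37 on lung 1 to 5, and 5.77, 5.72, 3.17 and 3.51 on liver 1 to 4. In both groups arrays 1 and 2 were the high ones, so the spread of Mki67 ran with the slide. Within each of the 4 slides that held both, lung lay below liver. The difference was -1.30 ± 0.95 and, with the replicate block, -1.08 at an adjusted p of 0.157 in limma.

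Genes of glycolysis and nutrient uptake had a median of -0.60 over 20 tested, with 2 above 0. At an unadjusted p under 0.05 there were 8 lower, beside 22% of all genes, and 2 were lower without overlap, beside 10.1%. Slc3a2, the heavy chain of an amino acid transporter, read 4.51, 4.25, 4.23, 3.17 and 3.59 on lung 1 to 5, and 4.82, 4.78, 5.19 and 5.21 on liver 1 to 4. Pgk1, a glycolytic kinase, read 5.49, 5.20, 5.16, 4.38 and 4.76 on lung 1 to 5, and 5.72, 5.65, 5.97 and 5.83 on liver 1 to 4. In both genes lung 4 was lowest and lung 1 highest among the lung arrays, none of which reached a liver array. The differences were -1.05 ± 0.30 and -0.79 ± 0.25, and without lung 1 both fell, at an adjusted p of 0.034 in limma, with values up to 0.249 and 0.251 over all alternatives. Oxidative phosphorylation had a median of -0.39 over 25 tested genes and mitochondrial ribosomal proteins -0.42 over 22, close to all genes. Cytosolic ribosomal proteins had a median of -0.01 over 20, with 10 above 0.

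Among glucocorticoid-responsive genes more differences lay on the higher side. Of 12 tested, 8 were above 0, 5 were higher at an unadjusted p under 0.05 beside 14.4% of all genes, 0 had no overlap, and the median was 0.57. Mt1, a metallothionein that binds zinc, read 3.11, 4.43, 3.48, 4.47 and 3.06 on lung 1 to 5, and 2.35, 2.38, 3.43 and 1.59 on liver 1 to 4. Mt2, its neighbour in function, read 3.69, 5.51, 4.81, 4.78 and 3.53 on lung 1 to 5, and 3.09, 3.25, 4.02 and 0.74 on liver 1 to 4. Lung 3 was not low in either, and liver 3 was the 1 liver array that overlapped the lung arrays. Zbtb16, a zinc finger factor induced by glucocorticoids, differed by 1.72 ± 0.44, with only 2 liver arrays well above background. The classical target Tsc22d3, which encodes GILZ, differed by 0.38 ± 0.24 and Fkbp5, a chaperone of the receptor, by -0.38 ± 0.34, both with overlap.

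Anxa1, a glucocorticoid-induced annexin that myeloid cells also make, read 3.27, 3.34, 0.88, 4.92 and 4.59 on lung 1 to 5, and -0.35, 0.33, 0.55 and 3.25 on liver 1 to 4. Lung 3 was the lowest lung array and liver 4 the highest liver array. The part of myeloid cells in the Anxa1 levels was not tested. The difference was 2.45 ± 0.88. Interferon-stimulated genes had a median of -0.04 over 20 tested, with 4 higher and 2 lower at an unadjusted p under 0.05, beside 14.4% and 22% of all genes, and 0 without overlap. Cholesterol synthesis genes had a median of 0.35 over 11, with 8 above 0. Fdps, the farnesyl diphosphate synthase, was the 1 without overlap, with 1.86, 1.93, 2.34, 2.16 and 2.03 on lung 1 to 5, and 1.55, 1.65, 1.79 and 1.67 on liver 1 to 4. Its sign turned with the scaling, and its difference was 0.40 ± 0.19.

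**Figure D4:**
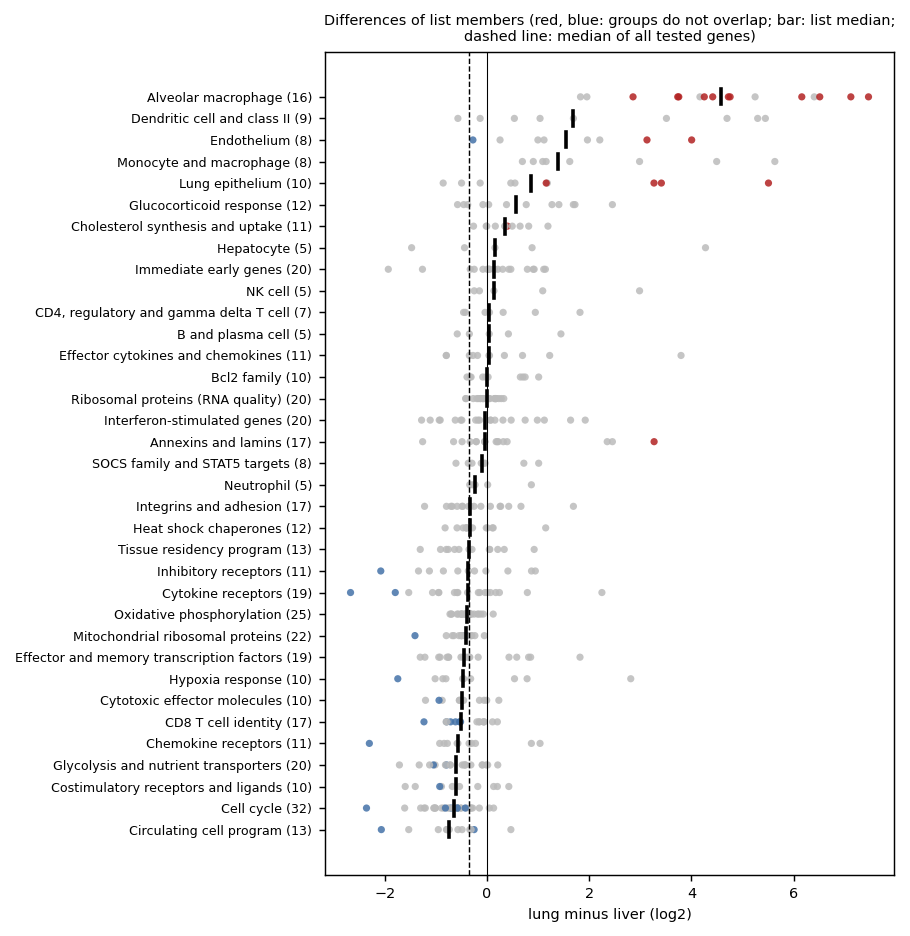
Differences between lung and liver (horizontal axis, log2) of each tested member of the gene lists with at least 5 tested members (vertical axis). Red points are genes whose lung arrays all lie above the liver arrays, blue points those that all lie below, and grey points overlap. Short bars mark list medians and the dashed line that of all tested genes (-0.35), and the alveolar macrophage members are furthest to the right.

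A band of genes at high levels ran together and made up most of the higher side. Crygc, a crystallin of the eye lens that T cells are not known for, read 4.31, 5.01, 5.16, 5.89 and 5.51 on lung 1 to 5, and 4.46, 3.92, 3.95 and 4.74 on liver 1 to 4. It was chosen after its values were seen. Over the 20 arrays of the series, 744 tested genes (10.2%) had a correlation above 0.9 with it, a description over arrays that share slides, amplification and scaling. Their median difference was 0.85, from 0.37 to 1.54. They made up 692 of the 1056 genes higher at an unadjusted p under 0.05 (65.5%), and 0 of the lower ones. Crygc itself was higher in lung by 0.91, and the 9 arrays were among the 20. A gene chosen to run with Crygc shares its direction by that choice. The counts here and without lung 1 below therefore describe the set and support nothing further. Only 2 of them had no overlap, although 739 were above background on all 9 arrays.

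The mean level of these genes was 3.96, 4.66, 4.90, 5.49 and 5.16 on lung 1 to 5, and 4.09, 3.64, 3.62 and 4.46 on liver 1 to 4. Lung 1 lay inside the liver range and the other 4 lung arrays above it. The set held genes of unrelated tissues, among them Pck1, an enzyme of glucose synthesis in liver and kidney, and Aqp5, a water channel of lung and glands. Pck1 read 4.36, 5.15, 5.38, 6.08 and 5.66 on lung 1 to 5, and 4.64, 4.28, 3.99 and 4.88 on liver 1 to 4, the same order as Crygc on the lung arrays. It also held 20 entries of the gene lists, among them Ctla4, Bcl2, Bax, Bbc3, Bok, Gata3, Zeb2, Nr4a2 and Tgfbr3. Cxcr2, Xcr1, Esam, Mvk and Nsdhl were in it too. They are tested members of the chemokine receptor, neutrophil, class II, endothelium and cholesterol lists above.

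Ctla4, an inhibitory receptor, read 3.96, 4.56, 4.84, 5.43 and 5.32 on lung 1 to 5, and 4.12, 3.43, 3.36 and 4.59 on liver 1 to 4. Its difference was 0.94 ± 0.37, against 0.91 ± 0.33 for Crygc. Without lung 1, 714 of the 961 genes called higher in limma belonged to the set, as did 14 of the 25 T cell list members called higher there. In the fits over 18 arrays and without lung 3, 0 of the called genes belonged to it. Among the other 6571 genes, 364 were higher and 1607 lower at an unadjusted p under 0.05, the median difference was -0.41, and limma without the set called 0. What makes these genes run together was not tested.

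**Figure D5:**
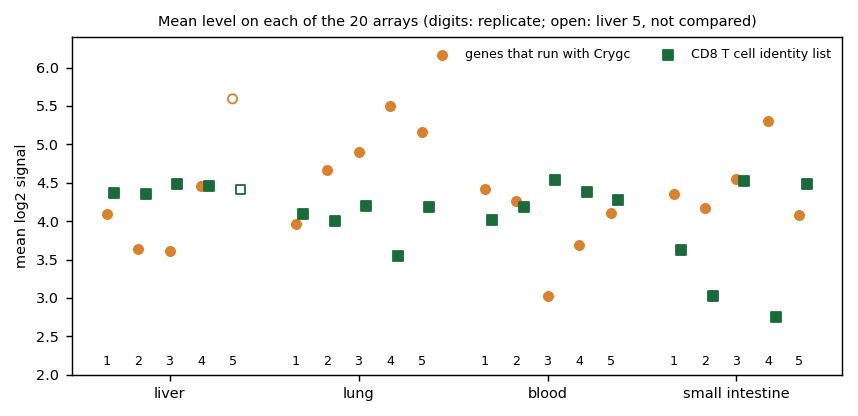
Mean level of the 744 genes that run with Crygc and of the CD8 identity genes (vertical axis, log2 relative to the 75th percentile) on each of the 20 arrays, grouped by site; liver 5 is drawn open. The set is highest on liver 5 and lung 4, and lung 1 lies among liver 1 to 4.

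Of the 741 genes lower in lung without overlap the median difference was -0.78, and 16 reached a size of 2. On lung 3, 138 of the 741 were not well above background. Kdelr1, the receptor that returns chaperones to the endoplasmic reticulum, had the smallest unadjusted p, 4.8e-05. It read -0.90, -1.79, -2.20, -2.22 and -2.09 on lung 1 to 5, and -0.27, 0.15, 0.30 and 0.30 on liver 1 to 4. No lung array was well above background, and it was at least 1.53-fold lower in lung. Rspry1, a protein with a RING finger, was at least 2.20-fold lower, also with no lung array above background. Cap1, an actin-binding protein, read 1.85, 0.37, -2.27, -2.24 and 0.25 on lung 1 to 5, and 3.13, 2.03, 2.10 and 3.63 on liver 1 to 4, and lung 1 was the nearest to the liver arrays. Its difference was -3.13 ± 0.81, with an adjusted p of 0.034 in limma without lung 1 and up to 0.249 over all alternatives. Only 3 lung arrays were well above background for Cap1.

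Lower genes that were bright on every array were smaller in size. Gypc, a membrane skeleton protein, read 3.04, 2.93, 2.67, 1.32 and 2.87 on lung 1 to 5, and 3.98, 4.39, 3.36 and 4.38 on liver 1 to 4, and Parvg, a parvin of blood cells that links integrins to actin, differed by -1.32 ± 0.31. Neither gene overlapped. Without lung 1 their adjusted p in limma was 0.034 and 0.0253, and it reached 0.249 for both over all alternatives. Without lung 3 the 8 genes called lower were Kdelr1, Pard6a, Plekhb2, Rspry1, Gm11110, Twf2, Il21r and Repin1, with adjusted p from 0.0181 to 0.0471 in limma, and they were chosen by that call. Without lung 1, 38 of the 354 T cell list members fell and 25 rose, beside 12.2% and 13.1% of all genes, and both counts lay below those shares. There were 10 of the lower ones on the cell cycle list and 6 on the glycolysis list.

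The lung arrays lay farther from the blood arrays than the liver arrays did. The lung mean was farther from the blood median than the liver mean for 84.7% of all tested genes, for 93.5% of the 107 higher without overlap and for 89.5% of the 741 lower. The liver mean lay within the range of the 5 blood arrays for 88.1% of all tested genes, and the lung mean for 38.9%. These shares carry no test, since the genes of a sample are not independent.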

How the data were processed

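The members, the gene lists (26 of T cell genes, 19 of markers of other cells) and the tests were chosen with earlier results of these data known. Amplified, Cy3-labelled RNA was hybridised to 1-colour Agilent mouse arrays, per the labels' protocols. The deposited files give spot intensity on a linear scale, which the file headers credit to Feature Extraction 11.0.1.1. The submitters' processing notes list Feature Extraction 10.7 and Partek instead. The flags for spots well above background are those of the deposited files. The value table that the authors deposited holds log2 values and served as an alternative. It differed from quantile-normalized log2 processed signal by a median of 6.3e-05.

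From the intensity, log2 processed signal less the 75th percentile of the array was computed, without 1377 control spots and 24 non-uniform spots. Of 39429 probes 27508 had 1 symbol through RefSeq accessions of assembly GRCm38.p6, over 20886 genes. The brightest probe of a gene was used, and a gene was tested where it was well above background on at least 4 arrays of either group. Tests were two-sided, with limma 3.58.1 in R 4.3.3 (lmFit and eBayes) over lung 1 to 5 and liver 1 to 4, with Benjamini-Hochberg adjustment over all 7315 genes at a threshold of 0.05. The number of arrays limits the precision. "At least N-fold" sets the mean of the bright group against a floor on each dim array, which is the lowest signal that counts as well above background or the probe's signal if that is higher. Normexp used the median signal and median background with an offset of 50, in place of the mean signal.

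Named are members of each list with the smallest unadjusted p (up to 3), a fixed set of T cell genes, the 19 genes called over 18 arrays and, chosen after values were seen because no gene passed, the largest differences without overlap and the genes stated as such. Some genes that this rule picks are not reported here. Deviations of arrays with the same number correlated at 0.01, 0.48, 0.26 and 0.29 over 7315 genes. Those of lung and liver arrays with different numbers ran from -0.38 to 0.54, the highest being lung 1 with liver 2. On simulated data 200 genes among 7314 were changed. There limma recovered 30.9% of 68 genes with a log2 change of 1, 75.8% of 66 with 2 and 100% of 66 with 4. It called 6 unchanged genes. Each simulated gene was drawn independently with its own normal spread, and its change was the same on every lung array. On the real arrays many genes shift together and lung 3 departs from the others, so these rates do not carry over to the data.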

Additional observations from a re-analysis of the deposited data

Results flagged for a closer look

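For independent groups picked beforehand, chance sets 1 array far from the others in about 1 in 20. Many genes here were picked after their values were seen, and lists share members, so that rate is no measure for the count below. Among 176 groups of array values checked (53 genes and 35 list means), 16 held 1 array far from the others of its site. On lung 3 these were the low levels of Ear2 at -1.98 (other lung arrays 5.02 to 7.43), Chil3 at -2.10 (6.48 to 8.26), H2-Ab1 at -2.03 (3.51 to 5.62), Cd74 at -1.42 (2.63 to 4.25) and Lmna at 1.35 (3.52 to 4.30). The macrophage and class II genes stood low together on that array.

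On lung 4 the low levels were those of Cd8a at 2.92 (3.92 to 4.31), Bcl11b at -0.82 (0.05 to 0.13) and Gypc at 1.32 (2.67 to 3.04). The mean levels of 4 lists were also low there. They were 1.49 for genes of recirculating cells (2.59 to 3.02), 1.39 for inhibitory receptors (1.81 to 1.93), 1.79 for effector and memory transcription factors (2.69 to 2.79) and 3.75 for heat shock chaperones (4.16 to 4.23). Lung 4 also held the highest summed alveolar macrophage signal, 1029, and the part of that signal in these low levels was not tested.

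Among the liver arrays, liver 2 stood apart for H2-Ab1 at 0.37 (other liver arrays -3.15 to -2.68), liver 3 for Cebpd at -0.995 (-3.50 to -3.27), and liver 4 for Cd8a at 4.37 (4.67 to 4.70) and Aurka at 2.58 (2.75 to 2.77). Outside the comparison, the mean level of the Paneth cell markers was 1.76 on liver 5, against -2.43 to -2.05 on liver 1 to 4. Paneth cells are antimicrobial cells of the intestinal crypts.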

How the results depend on the processing

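The number of genes limma called moved with the arrays, the model and the scaling. It was 0 in the main setting, 0 with liver 5, 22 over 20 arrays, 19 over 18, 64 over lung, liver and blood, and between 0 and 1850 with 1 array left out. Over 18 arrays without lung 3 there were 84. The replicate block, which is the slide, gave 0 calls and 2218 genes at an unadjusted p under 0.05, and it changed no call of the 9 arrays. Over 18 arrays the block gave 0 calls in place of 19, as did quantile normalization, with 2386 and 2027 genes at an unadjusted p under 0.05, and a common set of probes for the 75th percentile gave 4. With no filter, with a filter of 2 arrays and with the mean of a gene's probes 1 gene was called. Genes without overlap, higher and lower, numbered 210 and 352 after quantile normalization, 210 and 351 in the deposited table, 32 and 1840 after median scaling, 224 and 459 with the common-probe percentile and 52 and 335 with liver 5. With all 9 arrays above background 28 were higher. With 1 array left out the counts ran from 109 to 805 and from 763 to 1404. Leaving out an array can only keep or raise these counts, and adding liver 5 can only keep or lower them.

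Of 35 lists, 21 had a median above that of all genes, and 20 to 25 with 1 array left out, but 9 with no filter. Relative to all genes, medians with 1 array left out ran from -0.21 to -0.09 for CD8 identity, 0.24 to 0.62 for immediate early genes, -0.39 to -0.23 for the cell cycle and 4.16 to 6.01 for alveolar macrophages. With no filter the first 3 were -0.79, -0.26 and -1.04, when 20886 genes, most of them dim, were tested. With all 9 arrays above background 1 macrophage marker was left, at 2.11. Of 5548 values for 194 named genes, 66 in 21 genes changed sign, none of them called, and 259 in 117 genes passed the threshold. The common-probe scalings, the fits over 18 arrays with a block, with quantile normalization or without lung 3, the fit with blood and the one without the Crygc genes were added after the data were seen. Signal over background limits what can be said of dim genes on lung 3 and lung 4.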
